A study of Mus musculus with 2207 samples.

Results

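Fast-spiking interneurons of the mouse cortex are known for a small set of genes, and 4 of them, *Pvalb*, *Erbb4*, *Acan* and *Syt2*, were followed through single-nucleus RNA-seq of mice with 1 functional copy of *Ehmt1*. *Ehmt1* encodes the histone methyltransferase GLP, which places H3K9me2, a mark of silent chromatin. The 4 genes were chosen by name, with earlier results of these data known, and their rows were found among the 52636 genes of the deposited tables. The value measured was RPKM, the reads of a gene divided by gene length and by the nucleus's own read total.

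The 2207 nuclei came from the cortex of C57BL/6 mice and were sequenced as full-length total RNA (RamDA-seq). They fell into 6 pools, each from 3 mice aged 14 weeks. Per the labels, mice of all 6 pools were given 100 mg/kg tamoxifen 2 times at 3 weeks, whereas the study's text puts the doses a week apart. The 96-well plates held a wild-type pool (WT) and a heterozygous pool labelled Ehmt1delta/+, written Ehmt1Δ/+. The 384-well plates held 4 pools, and mice of all 4 carried the *Ehmt1* iTg transgene, from which Cre recombinase switches on FLAG-tagged GLP. The WT and Ehmt1Δ/+ pools of the 384-well plates were labelled as without CamKII-CreER, whereas the pools named iTg (Ehmt1+/+) and Ehmt1Δ/+; iTg carried CamKII-CreER. The study's figure legends read as if mice of all 4 genotypes carried CamKII-CreER. The labels are followed here, and what separates these pools depends on them. The CamKII promoter is active mainly in excitatory forebrain neurons after birth, so the transgene is not aimed at interneurons. The mouse of origin is not labelled for any nucleus. Each pool was therefore treated as 1 replicate, and no test was made across nuclei. The spread between pools then includes mice, plates and library preparation, which cannot be told apart.

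Parvalbumin-positive basket cells inhibit the cell bodies of their neighbours with fast trains of spikes. *Pvalb* encodes the calcium buffer parvalbumin. *Syt2* encodes synaptotagmin 2, the calcium sensor for fast transmitter release at their terminals. *Acan* encodes aggrecan, the core proteoglycan of the perineuronal net that wraps these cells. *Erbb4* encodes the neuregulin receptor through which interneurons receive excitatory synapses, and it is known in several interneuron types. *Pvalb* and *Syt2* are both known to depend on the coactivator PGC-1alpha, which works with estrogen-related receptors (ERR) on DNA.

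In mm10 coordinates, *Pvalb* (ENSMUSG00000005716.16) lay at chr15:78191114-78206400 on the minus strand, and *Erbb4* (ENSMUSG00000062209.15) at chr1:68032186-69108059 on the minus strand. *Acan* (ENSMUSG00000030607.7) lay at chr7:79053483-79115099 and *Syt2* (ENSMUSG00000026452.15) at chr1:134646677-134762593, both on the plus strand. Their summed exon lengths were 1041 bases for *Pvalb*, 12355 for *Erbb4*, 7469 for *Acan* and 7638 for *Syt2*. A transcript of *Pvalb* therefore offers the fewest bases to sequence, and a nucleus can miss it where it would catch the others.

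The 250 bases before the RefSeq transcription start (GRCm38.p6) of *Pvalb* and *Syt2* are shown because both genes are known PGC-1alpha targets. The *Pvalb* stretch is chr15:78206401-78206650 (minus strand) and the *Syt2* stretch is chr1:134646362-134646611 (plus strand). Capitals mark the ERR response element TCAAGGTCA, here on the opposite strand.
Pvalb: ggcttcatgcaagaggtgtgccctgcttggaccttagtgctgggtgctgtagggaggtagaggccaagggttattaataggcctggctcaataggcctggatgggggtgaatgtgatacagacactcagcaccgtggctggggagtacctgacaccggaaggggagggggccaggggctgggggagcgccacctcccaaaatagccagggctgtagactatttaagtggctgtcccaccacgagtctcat
Syt2: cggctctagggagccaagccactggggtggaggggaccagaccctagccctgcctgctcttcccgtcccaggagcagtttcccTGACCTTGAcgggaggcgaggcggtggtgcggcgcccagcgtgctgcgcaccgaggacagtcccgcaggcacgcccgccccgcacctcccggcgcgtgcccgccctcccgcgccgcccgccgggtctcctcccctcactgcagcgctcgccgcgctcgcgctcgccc
The *Syt2* stretch held this word as TGACCTTGA. The same word on either strand was in 0.387% of 32851 such windows of all genes. Its inner part, AAGGTCA, overlaps it and was in 4.08% of windows, and TATAAA was in 12.4%. The other *Pvalb* and *Syt2* windows and those of *Erbb4* and *Acan* held none of these 3 words on either strand.

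Depth and labels were examined first. The median nucleus of the neurons had 323273 to 397880 reads across pools, and that of the glia had 441701 to 510639 reads in the 96-well plates but only 39940 to 54877 in the 384-well plates. A share of nuclei above 0 was therefore also computed after each nucleus was thinned to 298762 reads (96-well) or 48585 reads (384-well). *Ehmt1* itself averaged 18.7, 19.5 and 20.7 RPKM in neurons of the WT 96-well, WT 384-well and iTg pools. It averaged 31.2, 31.7 and 33.9 RPKM in the Ehmt1Δ/+ 96-well, Ehmt1Δ/+ 384-well and Ehmt1Δ/+; iTg pools, which is higher and not lower. A gene-level RPKM adds up reads from every exon, deleted or not, so it cannot check the label. The pools are accordingly named "labelled Ehmt1Δ/+", and every direction given for them rests on that label.

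Neurons were classed by the larger of *Gad1*, an enzyme of GABA synthesis, and *Slc17a7*, the glutamate transporter of excitatory neurons. Of 1664 neurons, 333 were inhibitory, 1324 excitatory and 7 neither. Inhibitory nuclei formed 24.5% of neurons in the WT 96-well pool (95% binomial interval 19.3 to 30.3) and 25.6% in the WT 384-well pool (20.6 to 31.1). They formed 16.2% (12 to 21.2) and 17% (13 to 21.7) in the pools labelled Ehmt1Δ/+, 19.3% in iTg and 17.9% in Ehmt1Δ/+; iTg. These exact (Clopper-Pearson) intervals cover counting error only, since the spread between mice is not in them. The WT 96-well pool stood apart in background: *Gad1* was above 0 in 64.9% of its excitatory nuclei, against 28.2% in the Ehmt1Δ/+ 96-well pool and 9.09% to 25.2% in the 384-well pools. In oligodendrocytes, which should lack *Gad1*, the shares were 57.5% and 33.8% in the 96-well pools. The part of this background in the differences given next was not tested.

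*Erbb4* was the most abundant of the 4 genes in inhibitory nuclei on the RPKM scale. Its mean was 49.6 RPKM in WT and 47.8 RPKM in Ehmt1Δ/+ of the 96-well plates. On 384-well plates it was 28.97 in WT, 26.4 in Ehmt1Δ/+, 31.8 in iTg and 33.9 in Ehmt1Δ/+; iTg. *Syt2* averaged 5.76 to 10.9 RPKM and *Pvalb* 4.64 to 12.4 RPKM over the 6 pools, so these neighbours in the order overlapped. *Acan* was lowest, at 1.67 to 3.92 RPKM, and its range met neither of them. *Erbb4* was detected in 75.8% to 83.02% of inhibitory nuclei, *Syt2* in 43.4% to 75.8%, *Pvalb* in 26.9% to 53.2% and *Acan* in 11.6% to 24%.

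**Figure D1:**
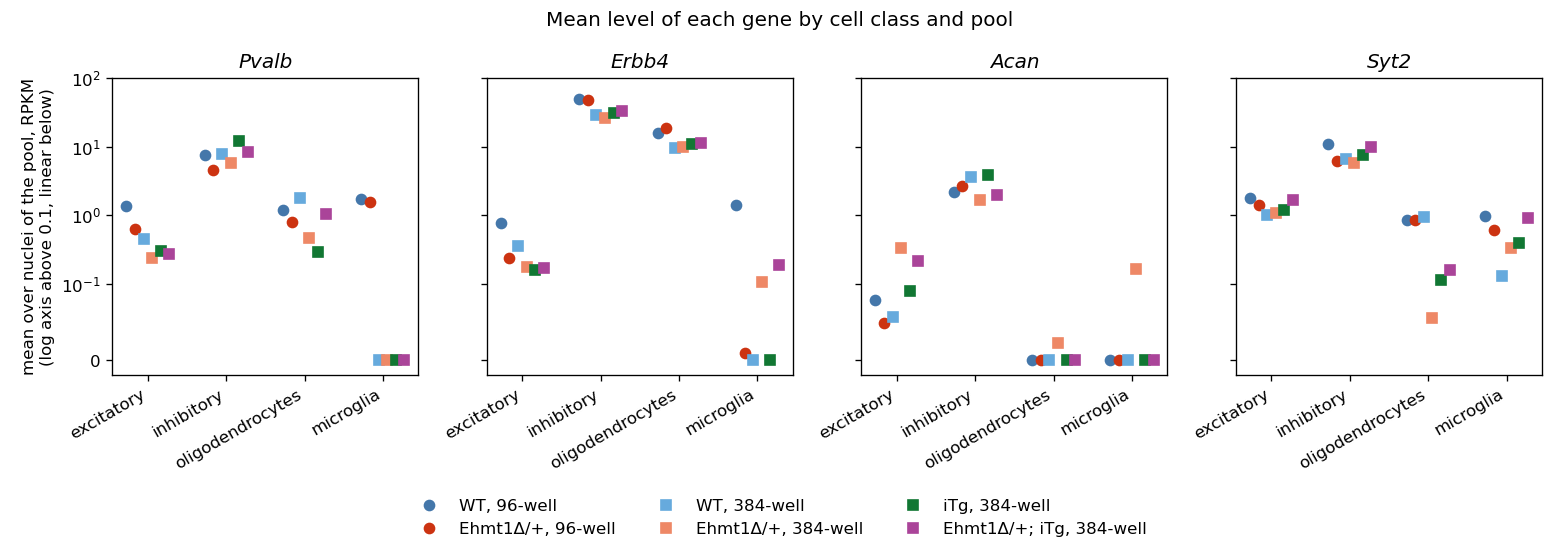
Mean over the nuclei of each pool, in RPKM (y axis, logarithmic above 0.1 and linear below), of *Pvalb*, *Erbb4*, *Acan* and *Syt2* in excitatory and inhibitory neurons, oligodendrocytes and microglia, with 1 point per pool (circles for 96-well, squares for 384-well). *Erbb4* sits at 26.4 to 49.6 RPKM in inhibitory neurons and at 9.55 to 18.9 RPKM in oligodendrocytes, whereas *Acan* is at or near 0 in glia.

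Outside the inhibitory class the 4 genes parted. *Erbb4* averaged 0.16 to 0.78 RPKM in excitatory nuclei, and inhibitory nuclei held 95.4% to 97.7% of all neuronal *Erbb4*. It was also found in oligodendrocytes, at 15.9 and 18.9 RPKM in the 96-well WT and Ehmt1Δ/+ pools and 9.55 to 11.6 RPKM in the 384-well pools, in 73.2% to 97.3% of nuclei. Microglia had *Erbb4* above 0 in 0% to 13.9% of nuclei. The part of free RNA in the oligodendrocyte level was not tested.

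*Syt2* reached beyond interneurons as well, at 1.0 to 1.8 RPKM in excitatory nuclei. In the 96-well plates 69.1% (WT) and 66.4% (Ehmt1Δ/+) of excitatory nuclei were positive, against 26.03% and 29.6% of oligodendrocytes at a higher median depth. On 384-well plates 35% to 52.6% of excitatory nuclei were positive, and 15.96% to 24.6% after thinning. Thinned oligodendrocytes were at 2.75% to 7.15% in 3 of those pools and at 15.96% in WT, the same as its excitatory nuclei. Inhibitory nuclei held 45.3% to 69.6% of neuronal *Syt2*.

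*Pvalb* was above 0 in 26.2% of WT and 13.2% of Ehmt1Δ/+ excitatory nuclei in the 96-well plates. Microglia were at 33.3% and 28.1% and oligodendrocytes at 30.1% and 22.5%, at a higher median depth. After thinning, the excitatory shares were 26.03% and 9.36%, beside 28.3% and 21.96% in microglia and 23.1% and 17.6% in oligodendrocytes. In these plates the excitatory share was thus not above that in cells that should lack *Pvalb*, other than WT over oligodendrocytes after thinning, and it is not read as expression. On 384-well plates the excitatory shares were 6.09% to 9.52%, with 1.12% to 1.88% left after thinning. The mean there was 0.24 to 0.46 RPKM in excitatory nuclei and 0.29 to 1.80 RPKM in oligodendrocytes, which had a lower median depth. The 384-well excitatory share is therefore not read as expression either. Where *Pvalb* was found in an excitatory nucleus, it usually rested on 1 read (median 1 to 1.5 reads by pool), against medians of 2 to 11 reads in inhibitory nuclei.

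*Acan* was above 0 in 0.909% to 3.04% of excitatory nuclei, and it was at 0 in oligodendrocytes of 5 of the 6 pools and in microglia of 5 of the 6 pools. A count of 0 there allows up to 4.11% to 4.48% of oligodendrocytes and 8.33% to 18.8% of microglia (3 nuclei over the number examined, counting error only). One excitatory nucleus of the Ehmt1Δ/+ 384-well pool had 56.5 RPKM of *Acan* and carried 66.8% of the *Acan* of that pool's excitatory nuclei. Inhibitory nuclei accordingly held 50.7% of neuronal *Acan* there, against 67.2% to 95.8% in the other pools.

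Over all neurons, the 3 of the 4 genes that were common enough to be tested were lower in the pools labelled Ehmt1Δ/+ than in WT in both plate formats. *Pvalb* averaged 2.88 RPKM in WT and 1.27 RPKM in Ehmt1Δ/+ neurons of the 96-well plates, and 2.38 and 1.20 RPKM in the 384-well plates. Both WT pools were above both pools labelled Ehmt1Δ/+. *Erbb4* averaged 12.8 and 8.06 RPKM in the 96-well plates and 7.69 and 4.68 RPKM in the 384-well plates. It was lower under the label in each format, but the Ehmt1Δ/+ 96-well pool was above the WT 384-well pool. *Syt2* averaged 4.04 and 2.21 RPKM in the 96-well plates and 2.42 and 1.88 RPKM in the 384-well plates, so that its groups did not overlap.

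None of these differences passed the test. With limma on log2(mean RPKM + 0.1) of the 4 pools and plate format as a covariate, the log2 ratio of *Pvalb* was -1.03 (SE 0.11, adjusted p = 0.461). That of *Erbb4* was -0.68 (SE 0.10, adjusted p = 0.461) and that of *Syt2* was -0.60 (SE 0.16, adjusted p = 0.471). Of 23853 genes tested, 0 passed an adjusted p of 0.05 (0%), and 2428 were at an unadjusted p under 0.05, with 1 residual degree of freedom. All 3 tested members were lower in both formats, as were 35% of all genes tested. *Pvalb* and *Erbb4* were lower by at least 0.5 on the log2 scale in both formats, as were 1.64% of all genes tested. The median log2 ratio over all genes was -0.03. *Acan* was above 0 in too few neurons to be tested, and without that filter its log2 ratio was -0.49 (SE 0.18, limma adjusted p = 0.644). That value keeps 2 nuclei with markers of oligodendrocyte precursors, described below. The 96-well log2 ratio of *Acan* over all neurons was -0.27 with them and -1.21 without them.

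Part of the difference over all neurons follows from arithmetic, because the pools labelled Ehmt1Δ/+ held fewer inhibitory nuclei per neuron. Giving WT class means the class shares of the Ehmt1Δ/+ pools yields log2 ratios for *Erbb4* of -0.55 (96-well) and -0.56 (384-well), beside -0.66 and -0.72 observed without a pseudocount. For *Pvalb* the same step yields -0.29 and -0.46, beside -1.18 and -0.99 observed. For *Syt2* it yields -0.31 and -0.32, beside -0.87 and -0.37. Most of the *Erbb4* difference was thus a difference in class shares, whereas *Pvalb* was lower by more than the class shares give in both formats. Inhibitory nuclei held 64.3% (WT) and 59.2% (Ehmt1Δ/+) of neuronal *Pvalb* in the 96-well plates, and 85.8% and 83.7% in the 384-well plates. The 96-well excitatory mean of *Pvalb*, not read as expression, was 1.36 RPKM in WT and 0.62 RPKM in Ehmt1Δ/+. Part of the lower *Pvalb* there thus lay outside inhibitory nuclei. Fewer inhibitory nuclei recovered and fewer inhibitory cells in the tissue cannot be told apart here.

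Within inhibitory nuclei the intervals of all 4 genes held 0, and that of *Erbb4* was about as wide as that of *Pvalb*. The limma log2 ratio was -0.09 for *Erbb4* (SE 0.20, 95% interval -0.68 to 0.49, adjusted p = 0.988) and -0.56 for *Pvalb* (SE 0.21, -1.18 to 0.06, adjusted p = 0.852). It was -0.50 for *Syt2* (SE 0.26, -1.28 to 0.27, adjusted p = 0.868) and -0.40 for *Acan* (SE 0.42, -1.67 to 0.86, adjusted p = 0.953). Of 23242 genes tested with limma, 0 passed an adjusted p of 0.05 (0%) and 1342 were at an unadjusted p under 0.05. *Pvalb*, *Erbb4* and *Syt2*, 3 of the 4 genes, were lower in both formats, as were 30% of all genes, and 0 of the 4 were lower by at least 0.5 in both, as were 4.06% of all genes.

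The mean of a pool is the share of positive nuclei times the mean level in those nuclei, and these moved differently in each gene. *Pvalb* was positive in 53.2% (interval 40.1 to 66.02) of WT and 30.2% (17.2 to 46.1) of Ehmt1Δ/+ inhibitory nuclei in the 96-well plates. Its level in positive nuclei was 14.2 ± 22.8 RPKM (SD over 33 nuclei) and 15.3 ± 15.9 RPKM (SD over 13 nuclei). In the 96-well plates the lower mean thus lay in the share, and after thinning the shares were 50.7% and 31.4%. On 384-well plates the shares were 28.8% (18.8 to 40.6) and 26.9% (15.6 to 41.02), and the levels were 27.7 ± 19.3 RPKM (21 nuclei) and 21.9 ± 16.8 RPKM (14 nuclei). There the shares nearly coincided and the larger part of the lower mean lay in the level, whose difference was smaller than the SD over nuclei. The WT 96-well share was the highest of the 6 pools, in the pool whose glia were also most often positive for *Pvalb* and *Gad1*, and the part of that background in the share was not tested.

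By 96-well plate, the *Pvalb*-positive share ran from 42.9% to 58.8% on 4 WT plates and from 22.2% to 44.4% on 4 plates labelled Ehmt1Δ/+. By the 3 plate codes that recur, WT had 42.9% (6 of 14), 50% (6 of 12) and 57.9% (11 of 19) positive. In the same order, Ehmt1Δ/+ had 22.2% (2 of 9), 44.4% (4 of 9) and 25% (4 of 16). No source used here says what a shared code marks, so these are not treated as pairs. Over all plates the ranges overlapped. Those of the mean over all inhibitory nuclei of a plate, nuclei at 0 included, did so more, at 2.02 to 12.6 RPKM and 1.60 to 13.5 RPKM. The log2 ratio of *Pvalb* in inhibitory nuclei was -1.05 without plate Glp_SNK170425004 and -0.33 without plate Glp_SNK170425005.

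For *Syt2*, the positive share in the 96-well plates was 75.8% (63.3 to 85.8) in WT and 55.8% (39.9 to 70.9) in Ehmt1Δ/+. The level in positive nuclei was 14.4 ± 26.8 RPKM (47 nuclei) and 11.1 ± 20.2 RPKM (24 nuclei). On 384-well plates the shares were 56.2% and 50%, at 11.7 ± 15.8 RPKM (41 nuclei) and 11.5 ± 14.6 RPKM (26 nuclei). The share was lower under the label in both formats, by 19.99 and 6.16 percentage points, but in the 384-well plates it was 1.52 points higher after thinning. By the 3 recurring plate codes, WT had 64.3%, 83.3% and 78.9% *Syt2*-positive nuclei, and Ehmt1Δ/+ had 55.6%, 77.8% and 43.8%. Without plate Glp_SNK170425004 the log2 ratio of *Syt2* was -1.18, and without plate Glp_SNK170425005 it was -0.27. These plates moved *Syt2* and *Pvalb* the same way.

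*Erbb4* was positive in 75.8% of WT and 79.1% of Ehmt1Δ/+ inhibitory nuclei in the 96-well plates, and in 79.5% and 80.8% in the 384-well plates. Its level in positive nuclei was 65.5 ± 62.3 RPKM and 60.4 ± 43.7 RPKM in the 96-well plates, and 36.5 ± 26.02 RPKM and 32.7 ± 29.8 RPKM in the 384-well plates. All 4 shares lay within one another's intervals. The sign of the share difference turned in both formats under other class, read-minimum or depth rules.

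*Acan* was positive in 17.7% (9.20 to 29.5) of WT and 11.6% (3.89 to 25.1) of Ehmt1Δ/+ inhibitory nuclei in the 96-well plates. On 384-well plates it was positive in 23.3% (14.2 to 34.7) and 17.3% (8.23 to 30.3). Its mean was 2.17 RPKM in WT and 2.67 RPKM in Ehmt1Δ/+ of the 96-well plates, and 3.69 and 1.67 RPKM in the 384-well plates, so the formats differed in direction. The 96-well value rested on 2 nuclei of plate Glp_SNK170425005 that had been labelled neurons and held 31.7 and 41.3 RPKM of *Acan*. Both carried markers of oligodendrocyte precursors, with *Pdgfra* at 343 and 340 RPKM and *Cspg4* at 243.4 and 263.1 RPKM, and had *Gad2* at 0. The sum of 3 such markers was at most 27.7 RPKM in the other 1662 neurons. Without these 2 nuclei the Ehmt1Δ/+ 96-well mean was 1.02 RPKM, from 3 of 41 nuclei (7.32%), and *Acan* was lower in both formats, with a limma log2 ratio of -1.06 (SE 0.20, adjusted p = 0.828). These 3 nuclei were all on plate Glp_SNK170425004, and the positive share on the WT plates ran from 0% to 29.4%.

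**Figure D2:**
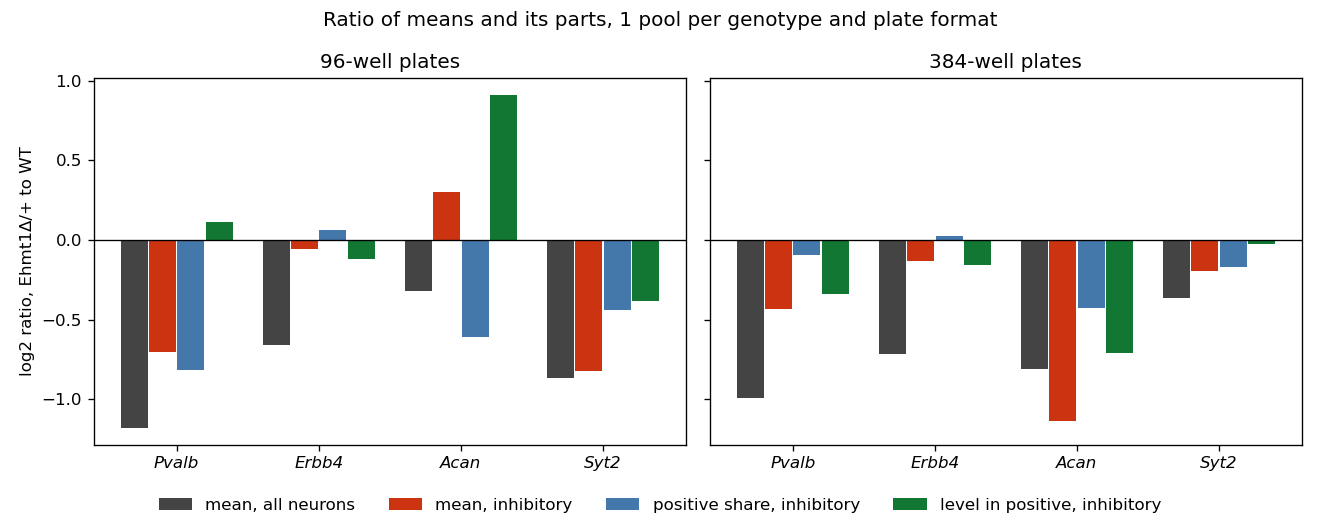
Log2 ratio of the pool labelled Ehmt1Δ/+ to WT, without a pseudocount, for the mean over all neurons, the mean over inhibitory nuclei and its 2 parts, the positive share and the level in positive nuclei, in each plate format (1 pool per bar side, no error). In inhibitory nuclei *Erbb4* lies at -0.06 and -0.13, and the *Pvalb* share lies at -0.82 in the 96-well but -0.10 in the 384-well plates.

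**Figure D3:**
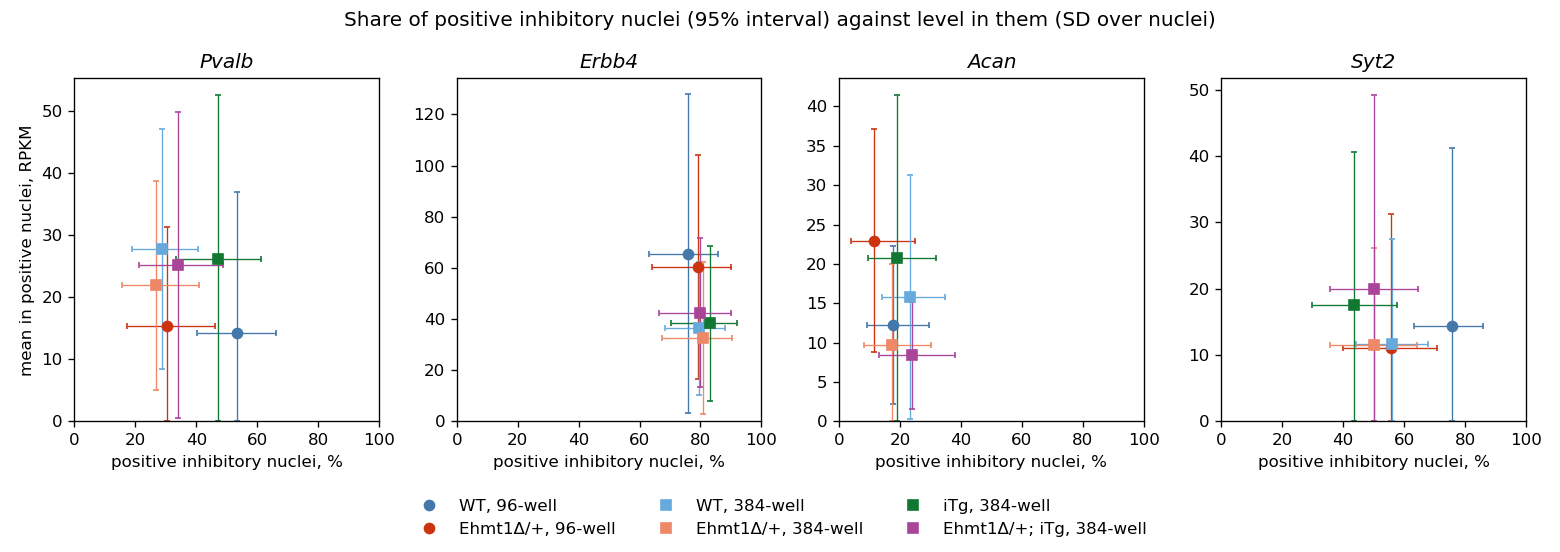
Share of inhibitory nuclei above 0 (x axis, percent, exact 95% binomial interval) against mean RPKM in the positive nuclei (y axis, bars of 1 SD over nuclei, drawn down to 0 at most), with 1 point per pool. The *Pvalb* share is 53.2% in the WT 96-well pool and 26.9% to 47.2% in the other 5 pools.

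**Figure D4:**
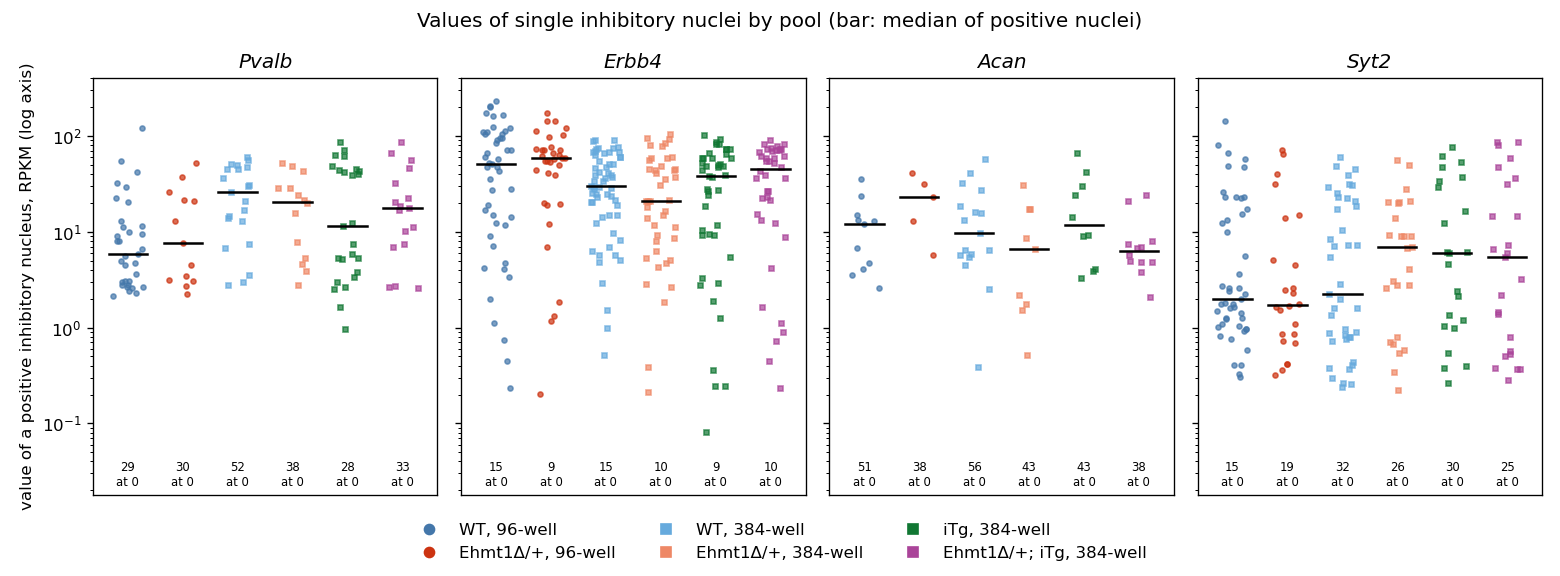
RPKM of each gene in every positive inhibitory nucleus (y axis, logarithmic) by pool, with a line at the median of the positive nuclei and the number of nuclei at 0 written below. Positive nuclei spread from under 1 RPKM to 142.1 RPKM for *Syt2* and to 234.7 RPKM for *Erbb4*.

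Inhibitory nuclei with any of the 4 genes above 0 had each other one more often in 6 of 6 pools, except for *Erbb4* and *Syt2*. That pair did so in 5 of 6 pools, and in Ehmt1Δ/+; iTg *Erbb4* was above 0 in 80% of nuclei with and without *Syt2*. Among 331 inhibitory nuclei, leaving out the 2 with precursor markers, 10.3% had none of the 4 genes, 31.7% had 1, 29.3% had 2, 13.9% had 3 and 14.8% had all 4. *Acan* was above 0 in 44.3% of *Pvalb*-positive nuclei (54 nuclei) and in 3.83% of *Pvalb*-negative nuclei (8 nuclei). *Syt2* was above 0 in 76.2% and 44.5% of the same nuclei, and *Erbb4* in 90.98% and 72.7%. Each of the 3 shares was higher in *Pvalb*-positive nuclei in 6 of 6 pools, although these nuclei were also deeper, with a median of 384306 reads against 320325. The gap was wider within the 384-well pools, up to 466054 against 241342 reads in Ehmt1Δ/+, and its part in the shares was not tested. Read from the other side, 54 of 62 *Acan*-positive nuclei (87.1%) also had *Pvalb*, and 61 of them (98.4%) had *Erbb4*.

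Across inhibitory nuclei, the Pearson correlation of log2(RPKM + 1), averaged over the 6 pools, was 0.71 between *Pvalb* and *Acan*, 0.68 between *Pvalb* and *Syt2* and 0.68 between *Acan* and *Syt2*. *Erbb4* was less like them, at 0.33 with *Pvalb*, 0.30 with *Acan* and 0.26 with *Syt2*. These nuclei share pools and depth, so the values are descriptions.

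Over all 1664 neurons and 25102 genes, the gene most like *Pvalb* was *Lrrc38*, which encodes an auxiliary subunit of BK potassium channels, with a mean correlation of 0.54. *Adamtsl5* (0.50), the protease gene *Adamts15* (0.50), *Frmpd1* (0.49) and *Arhgef6* (0.49) followed. *Acan* was most like *Pvalb* itself (0.54), then *Adamtsl5* (0.53), *Lrrc38* (0.52), *Adamts15* (0.49) and *Syt2* (0.48). *Syt2* was most like *Bcan* (0.48), which encodes the net proteoglycan brevican, then *Adamtsl5* (0.46), *Pvalb* (0.46), *Lrrc38* (0.41) and *Flt3* (0.40). The genes nearest to *Erbb4* were general interneuron genes: the noncoding *Dlx6os1* (0.77), *Gad1* (0.76), the homeobox gene *Dlx1* (0.75), the vesicular GABA transporter gene *Slc32a1* (0.75) and *Btbd11* (0.74). *Lrrc38* and *Adamtsl5* were among the 5 genes most like each of *Pvalb*, *Acan* and *Syt2*. *Acan* itself, at 0.54 with *Pvalb*, could not be listed for the others because it was above 0 in under 5% of neurons of some pools.

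To see where the 4 genes sit among interneuron types, each inhibitory nucleus was placed by whichever of 4 marker lists was highest, with the 4 genes left out of the lists. The Pvalb-type list (*Tac1*, *Cox6a2*, *Kcns3*, *Pthlh*, *Btbd11*, *Kcnc1*) led in 81 nuclei, the Vip-type list in 75, the Lamp5-type list in 73 and the Sst-type list in the rest. These are the highest of 4 scores and not cell types, and 5 to 11 nuclei of each group lay near the boundary. *Lhx6*, a gene of interneurons from the medial ganglionic eminence, was positive in 92.6% of Pvalb-type and 88.2% of Sst-type nuclei, against 8.0% and 6.85% of Vip-type and Lamp5-type nuclei.

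*Pvalb* was at 28.5 RPKM in the Pvalb-type group (85.2% positive) and at 2.09 RPKM in the Sst-type group (29.4%), with 0.49 and 1.08 RPKM in the Vip-type and Lamp5-type groups. *Syt2* was at 26.2 RPKM in the Pvalb-type group and at 1.22, 3.02 and 2.06 RPKM in the others. *Acan* was at 9.75 RPKM (62.96% positive) in the Pvalb-type group and at 0.10 to 0.26 RPKM elsewhere. *Erbb4* had a different order: 61.7 RPKM in the Pvalb-type, 43.7 in the Vip-type, 34.6 in the Lamp5-type and 11.5 in the Sst-type group. Within single pools *Erbb4* was lowest in the Sst-type group in 6 of 6, but highest in the Pvalb-type group in 5 of 6. In the Ehmt1Δ/+ 384-well pool the Vip-type group was at 63.5 RPKM and the Pvalb-type group at 46.5 RPKM. The order of the Vip-type and Lamp5-type groups also turned between pools.

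**Figure D5:**
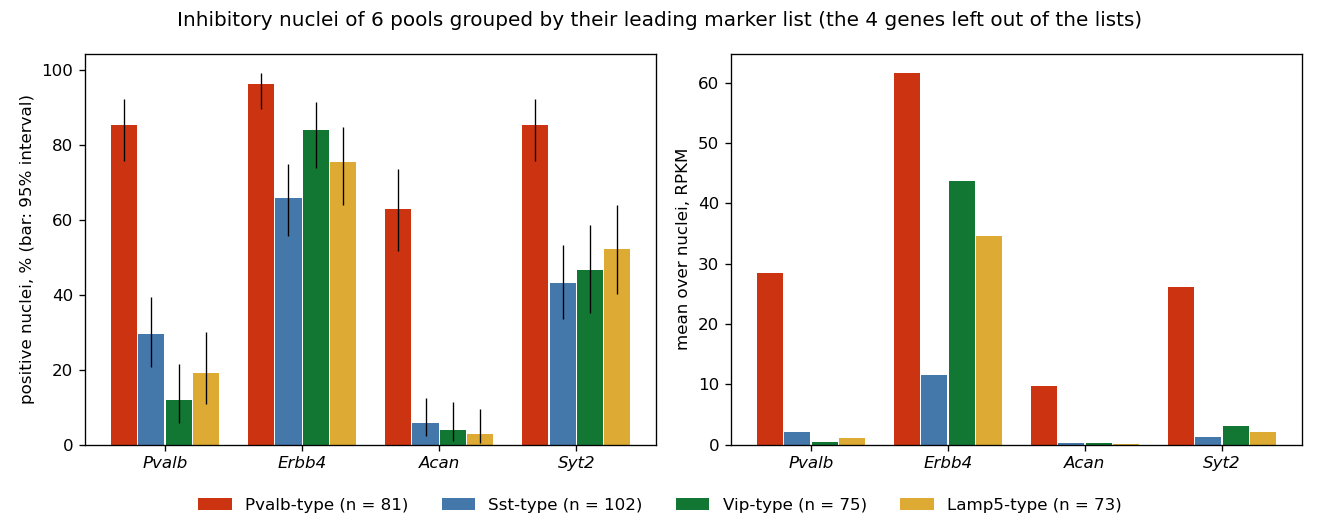
Share of positive nuclei (left, percent, exact 95% binomial interval) and mean RPKM (right) of the 4 genes in inhibitory nuclei of the 6 pools, grouped by the highest of 4 marker lists that leave these genes out. *Acan* is at 9.75 RPKM in the Pvalb-type group and at most 0.26 RPKM in the others, whereas *Erbb4* is at 11.5 RPKM or more in every group.

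The Pvalb-type group made up 25.8% and 24.4% of inhibitory nuclei in the 96-well WT and Ehmt1Δ/+ pools, and 21.9% and 19.2% in the 384-well pools. Its share was 32.1% in iTg and 24% in Ehmt1Δ/+; iTg. The intervals of all 6 shares overlapped. Within this group, in 16 WT and 10 Ehmt1Δ/+ nuclei of each format, *Pvalb* averaged 21.7 ± 31.3 and 18.5 ± 17.2 RPKM (96-well) and 32.4 ± 19.6 and 24.9 ± 19.4 RPKM (384-well). *Acan* averaged 7.97 ± 10.3 and 4.18 ± 7.86 RPKM (96-well) and 15.9 ± 16.3 and 8.33 ± 10.5 RPKM (384-well). The SD over nuclei was larger than each difference.

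On the log2(mean + 0.1) scale the differences within the Pvalb-type group were -0.23 and -0.38 for *Pvalb*, -0.28 and -0.25 for *Erbb4*, -0.48 and -0.37 for *Syt2* and -0.92 in both formats for *Acan*. All 4 genes were lower in both formats, as were 26% of the genes compared in these nuclei. No test was made, because each pool held so few of these nuclei.

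The pools with CamKII-CreER gave 1 value each and no test. In inhibitory nuclei of the 384-well plates, *Pvalb* averaged 7.97 RPKM in WT, 5.90 in Ehmt1Δ/+, 12.4 in iTg and 8.54 in Ehmt1Δ/+; iTg. The positive shares were 28.8%, 26.9%, 47.2% (33.3 to 61.4) and 34%. *Pvalb* was thus higher in each pool with CamKII-CreER than in its counterpart without, while the shares overlapped within their intervals. *Syt2* was 7.59 RPKM in iTg and 9.95 in Ehmt1Δ/+; iTg, beside 6.59 in WT and 5.76 in Ehmt1Δ/+. *Erbb4* was 31.8 and 33.9 RPKM, beside 28.97 and 26.4. *Acan* was 3.92 and 2.01 RPKM, beside 3.69 and 1.67. The mean of each of the 4 genes over inhibitory nuclei was thus higher in both pools with CamKII-CreER than in the counterparts. The share of all genes with a higher mean in both was not counted. The positive shares of 3 of the 4 did not follow their means. In iTg and WT they were 43.4% and 56.2% for *Syt2*, 18.9% and 23.3% for *Acan*, and 83.02% and 79.5% for *Erbb4*. In Ehmt1Δ/+; iTg and Ehmt1Δ/+ they were 50% and 50%, 24% and 17.3%, and 80% and 80.8% in the same order. Within the Pvalb-type group the log2 ratio of iTg to WT was 0.14 for *Pvalb*, but -0.11 for *Erbb4*, -0.48 for *Acan* and -0.11 for *Syt2*. That of Ehmt1Δ/+; iTg to Ehmt1Δ/+ was 0.42, 0.42, -0.15 and 0.69 in the same order. The medians over the genes compared there were -0.06 and 0.12. The WT and Ehmt1Δ/+ pools serve in 2 comparisons each, so these ratios are not independent of the ones given before.

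Over all neurons of the 384-well plates, *Pvalb* was 2.38 RPKM in WT, 1.20 in Ehmt1Δ/+, 2.63 in iTg and 1.75 in Ehmt1Δ/+; iTg. *Pvalb* was thus lower in Ehmt1Δ/+ than in WT and lower in Ehmt1Δ/+; iTg than in iTg. *Erbb4* was 7.69, 4.68, 6.27 and 6.20 RPKM in the same order. *Syt2* was 2.42, 1.88, 2.49 and 3.17 RPKM, so that its highest pool was Ehmt1Δ/+; iTg. *Acan* was 0.99, 0.56, 0.83 and 0.53 RPKM.

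Genes that work beside the 4 were read from 6 lists, chosen by function. The log2 ratios are to WT over all neurons, limma gave 0 calls in every list, and counts are of the list's tested genes including any of the 4. Of 6 tested perineuronal net genes, 2 were lower and 1 higher in both formats, and 3 differed in direction, where 35% of all genes tested were lower in both. *Hapln4*, a link protein of the net, was at -0.37 (SE 0.11, adjusted p = 0.479), *Tnr*, which encodes tenascin-R, at 0.27 (SE 0.10, adjusted p = 0.518), and *Has3*, a hyaluronan synthase gene, at -0.10. The net genes thus had no common direction in these values, which keep the 2 nuclei with precursor markers. The part of those nuclei in the ratios of the net genes was not tested.

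Of 6 tested neuregulin and ErbB genes, 3 were lower and 1 higher in both formats, beside 35% of all genes tested that were lower in both. The ligand genes *Nrg2* and *Nrg4* were at -0.06 and -0.13, and the receptor gene *Erbb2* was at 0.75 (SE 0.12, limma adjusted p = 0.461) from levels of 0.33 to 0.69 RPKM. *Erbb4* alone of them was lower by more than 0.5 in both formats.

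Of 8 calcium-sensing synaptotagmin genes, 5 were lower and 1 higher in both formats, and *Syt2* was 1 of the 5. Over all genes tested, 35% were lower in both formats. *Syt1*, the sensor of most forebrain synapses, was at -0.28, *Syt9* at -0.41, *Syt10* at -0.69 (SE 0.21, limma adjusted p = 0.479) and *Syt6* at 0.39. *Syt2* itself was at -0.60. Of the EF-hand calcium buffers 2 were tested, and *Calb1*, the calbindin gene, was at 0.13 with opposite signs in the formats, beside -1.03 for *Pvalb*.

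Of 7 genes of the PGC-1alpha list, 5 were lower in both formats and 0 higher, and 2 of the 5 were *Pvalb* and *Syt2*. Among all genes tested over all neurons, 35% were lower in both. *Nefh*, a neurofilament gene, was at -0.40 (SE 0.10, limma adjusted p = 0.469), *Cplx1*, the complexin 1 gene, at -0.47 (SE 0.18, adjusted p = 0.516), and *Esrra*, the ERR-alpha gene, at -0.11. *Ppargc1a*, which encodes PGC-1alpha and falls outside the rule for naming genes, was named after its values were seen: it differed in direction between formats (-0.30 and 0.05). In inhibitory nuclei 6 of the 7, *Pvalb* and *Syt2* among them, were lower in both formats, beside 30% of all genes tested there, and *Ppargc1a* itself was higher in both (0.15 and 0.59). Among the 6, *Cplx1* and *Esrra* were barely lower in the 384-well plates, at -0.007 and -0.05.

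Of 10 fast-spiking channel genes, 7 were lower and 2 higher in both formats over all neurons, where 35% of all genes tested were lower in both. *Kcnc1*, a gene of the Kv3 channels that shorten spikes, was at -0.37 (SE 0.11, limma adjusted p = 0.475). The Kv1 genes *Kcna1* and *Kcna2* were at -0.14 and -0.22. In inhibitory nuclei 4 were lower and 3 higher in both formats, where 30% of all genes tested were lower in both. *Kcnc1* was at -0.15 there. The list medians over all neurons were -0.40 for PGC-1alpha, -0.24 for synaptotagmins, -0.13 for channels, -0.03 for ErbB and -0.02 for net genes, beside -0.03 over all genes. These medians include any of the 4 genes that were tested, so that of PGC-1alpha holds *Pvalb* and *Syt2*. The other genes of that list ran from -0.47 to -0.03.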

How the data were processed

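The authors sorted nuclei from mouse cortex into 96-well or 384-well plates and prepared RamDA-seq libraries. Per the labels and the study's methods, reads were trimmed with Fastq-mcf, mapped to mm10 with HISAT2 2.0.4, filtered with RSeQC and counted with featureCounts (Subread 1.5.0). The authors deposited RPKM values of 52636 genes, 1 table per plate format, and the nuclei were typed by the authors from clusters. Raw counts were not used here, and the authors' own tables of changed genes were not used.

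The RPKM steps gave each nucleus a read total, with a median of 72.3% of values whole to within 0.01 of a read. The mean RPKM of each pool was compared on the log2(value + 0.1) scale with limma 3.58.1 (R 4.3.3) over 4 pools with plate format as a covariate and Benjamini-Hochberg adjustment. A ratio on this scale understates the change of low genes. Genes had to be above 0 in at least 10% of nuclei of 1 genotype in both formats. The script was tested on simulated data. Tests measure only the spread between these pools. Shares have exact 95% binomial intervals. Plate code and well names repeated across pools in 641 cases, with at most 0.064% of values equal between nuclei of 1 name.

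The 4 genes and all lists were chosen with earlier results of these data known. Named genes were the 4, at most 4 further genes of each list with the largest smaller log2 ratio of the same sign in both formats in neurons, or with the highest mean where there was none, and the 5 genes most like each of the 4 among genes above 0 in at least 5% of neurons of every pool, passing over predicted genes. The values of 1 gene that this rule names are not reported here. Alternatives were other pseudocounts, filters, class rules, read minimums, thinning, all 6 pools, and leaving out each plate or format.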

Additional observations from a re-analysis of the deposited data

Results flagged for a closer look

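*Erbb4* over all neurons stood out because it differed in direction with CamKII-CreER in the *Ehmt1*+/+ and Ehmt1Δ/+ backgrounds. Its log2 ratio of iTg to WT was -0.29, and that of Ehmt1Δ/+; iTg to Ehmt1Δ/+ was 0.40 in the 384-well plates. With 1 pool on each side, the difference between both ratios was not tested.

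*Acan* in inhibitory nuclei stood out because the log2 ratio of the pool labelled Ehmt1Δ/+ to WT was 0.29 on 96-well plates and -1.09 on 384-well plates. This difference was not tested. Without the 2 nuclei that carried precursor markers, an exclusion chosen after seeing the data, the 96-well ratio was -1.02. Its Ehmt1Δ/+ side then rested on positive nuclei of plate Glp_SNK170425004 alone.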

How the results depend on the processing

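No gene was called in neurons or in inhibitory nuclei under any alternative run (limma, smallest adjusted p 0.130 and 0.752), while 1228 to 3126 and 1025 to 2070 genes had an unadjusted p under 0.05. The log2 ratios of *Pvalb*, *Erbb4*, *Syt2* and, with only 2 alternatives, *Acan* over all neurons kept their direction in 56 of 56 values, as did 75 of 79 within inhibitory nuclei. Over all neurons the ratios ran from -1.28 to -0.32 for *Pvalb*, -0.79 to -0.37 for *Erbb4* and -0.84 to -0.16 for *Syt2* (limma adjusted p 0.354 to 0.798), each smallest in size with the mean of log2(RPKM + 1). *Erbb4* in inhibitory nuclei turned to 0.050 with the mean of log2(RPKM + 1) and to 0.091 with every neuron having *Gad1* above 0. When a plate or format was left out it ran from -0.18 to 0.072, the highest without plate WT_SNK170425003, and *Acan* ran from -1.09 to 0.29, the highest without the 384-well pools. The *Erbb4* share difference (main 3.26 and 1.32 percentage points for 96-well and 384-well) turned to -2.64 in the 96-well plates with every *Gad1*-positive neuron, and in the 384-well plates to -2.53 at 2 or more reads and -0.71 when thinned. The *Syt2* share difference in the 384-well plates (main -6.16) turned to 1.52 when thinned. The cause was not tested. Leaving out the precursor-marker nuclei, chosen after seeing the data, turned no pooled direction.

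No paired analysis was possible because the mouse of each nucleus is not labelled and the labels give the pools no replicate number. Plate codes recur across genotypes, but no source used here says what a shared code marks. Shares from short genes such as *Pvalb* are limited by depth, often 1 read.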
